A study of Arabidopsis thaliana with 6 samples.

Results

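The class III peroxidases of Arabidopsis thaliana form a gene family numbered in the order of the loci along the chromosomes, and its members PER1 to PER60 are described here by locus identifier. Of these 60 loci, 56 are in the table of 24438 genes, and the 4 that are not (PER6 AT1G24110, PER13 AT1G77100, PER29 AT3G17070 and PER41 AT4G17690) count as not detected. A further 10 members did not reach an RPKM of 1 in at least 2 libraries, so that 46 members were tested. RPKM is the number of reads scaled to the length of the gene model and to the reads of the library, so levels of different genes can be set side by side.

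The study compared the molecular responses of Arabidopsis to ionic aluminium and to aluminium oxide nanoparticles. RNA was sequenced from roots of wild type plants of the Columbia ecotype in the vegetative stage: 2 libraries from plants given ionic Al (ion roots), 2 from plants given nAl2O3, the nanoparticle form of aluminium oxide (nanoparticle roots), and 2 from the control group (control roots). The labels used here give no dose, time or age, and the second nanoparticle library carries the spelling nAl2O4 and was kept in its group by its title. The labels do not tell whether libraries of the same group derive from different plants, and p-values therefore reflect library-to-library spread that could be purely technical.

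Class III peroxidases are secreted haem enzymes of the cell wall and the vacuole. With hydrogen peroxide they oxidise phenolic compounds, which joins monolignols into lignin, links ferulates and ties extensins together, and so stiffens the wall. In another reaction cycle they release oxygen radicals that can loosen it. In roots, members of the family take part in root hair growth, in the balance between cell division and elongation, in lignification of xylem and endodermis, and in the oxidative burst after elicitors. Aluminium ions are known as inhibitors of root elongation.

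The reads behind the tables, recovered from the steps of the RPKM values, came to between 12318429 and 14489392 per library. All 5 root marker genes were present in each library. In bulk roots, fewer cells of a type and less RNA per cell cannot be told apart. The sums of root hair and of xylem markers did not overlap between the groups. The 6 root hair markers summed to 4.76 and 2.34 RPKM in ion roots, 106.1 and 106.1 RPKM in nanoparticle roots and 68.0 and 38.2 RPKM in control roots. The 6 xylem markers summed to 57.5 and 59.6 RPKM in ion roots, 170.2 and 169.3 RPKM in nanoparticle roots and 215.0 and 186.4 RPKM in control roots. None of the root hair or xylem markers was at 0 reads in any library. The 6 markers of the endodermis and Casparian strip summed to 294.0 and 224.5 RPKM in ion roots, 441.8 and 474.2 RPKM in nanoparticle roots and 351.3 and 158.1 RPKM in control roots, with CASP5 at 0 reads in the second ion library and ESB1 at 0 reads in 3 libraries of the other groups. The 6 shoot markers summed to 31.6 and 30.3 RPKM in ion roots, 61.5 and 167.7 RPKM in nanoparticle roots and 121.8 and 150.8 RPKM in control roots. The endodermis sums of ion and control roots overlapped, as did the shoot sums of nanoparticle and control roots. The part of these marker differences in the peroxidase results was not tested.

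In ion roots the family moved in both directions. Among the 46 members tested, 19 rose and 11 fell in ion roots against control roots, and 16 did not pass the test (limma on log2(RPKM + 1), adjusted p under 0.05 over all genes tested). Of the members tested 41.3% rose and 23.9% fell, against 12.3% and 10.3% of all 19648 genes tested. The median log2 fold change was 0.72 over the members tested and 0.06 over all genes tested. By log2 fold change the largest rises belonged to PER53 and PER54, neighbours on chromosome 5. The largest falls on that scale belonged to PER44, a root hair peroxidase, and PER27. Without the second ion library 9 members rose, against 3.55% of all genes tested in that fit.

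**Figure D1:**
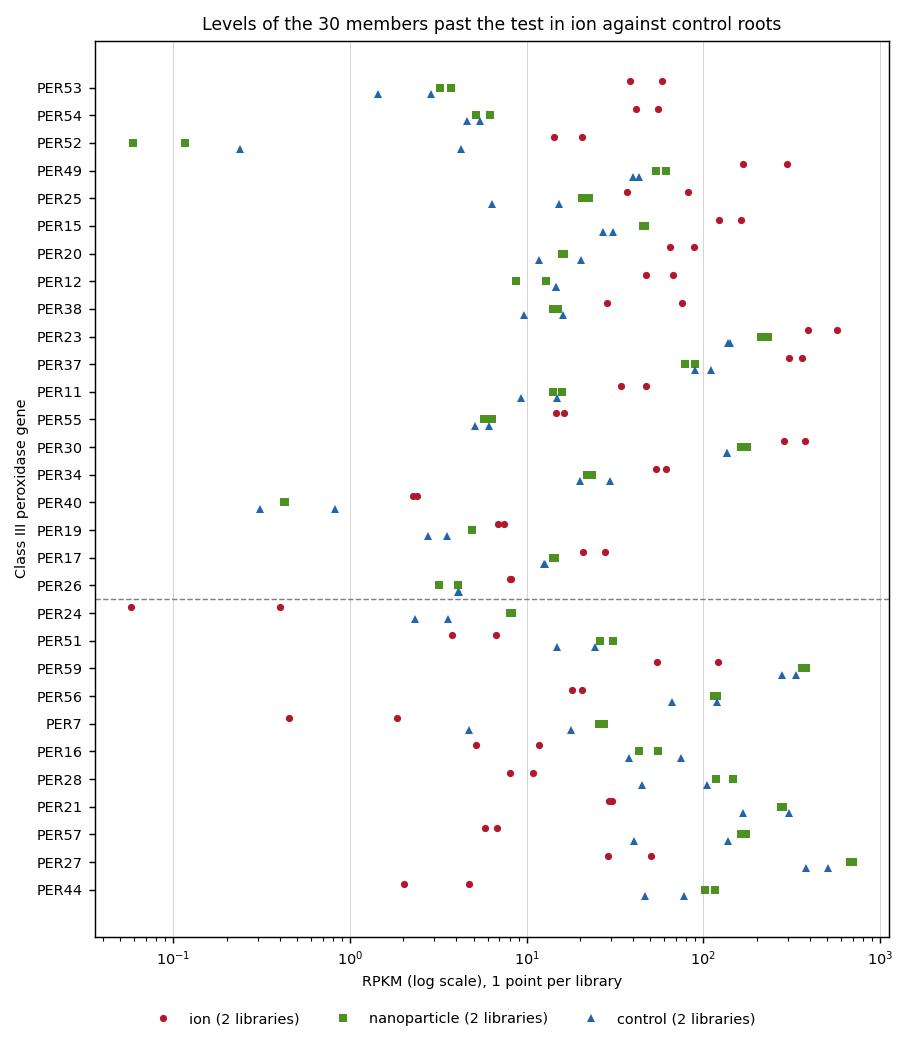
RPKM of the 30 members past the test in ion against control roots, on a log axis, with 1 point per library and ion (circles), nanoparticle (squares) and control (triangles) libraries within each row. Members above the dashed line rose in ion roots and members below it fell; the ion points lie to the right of the control points in every row above the line and to the left in every row below it.

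PER53 (AT5G06720), an enzyme studied as ATPA2 for its ability to polymerise lignin precursors, had 38.3 and 58.2 RPKM in ion roots, 3.73 and 3.21 RPKM in nanoparticle roots and 1.43 and 2.86 RPKM in control roots. Both ion libraries lay above all other libraries, and pooled reads scaled to depth were 23.0-fold those of control roots. The log2 fold change of ion against control was 3.98 ± 0.30 (SE, adjusted p = 0.000531). PER54 (AT5G06730), which lies next to it on the same strand, had 41.6 and 55.6 RPKM in ion roots, 5.15 and 6.17 RPKM in nanoparticle roots and 4.61 and 5.46 RPKM in control roots, a log2 fold change against control of 3.03 ± 0.22 (adjusted p = 0.000435). The groups of ion and control libraries did not overlap for either gene.

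PER44 (AT4G26010), known for its part in root hair elongation, had 4.69 and 2.03 RPKM in ion roots, 102.0 and 116.4 RPKM in nanoparticle roots and 77.8 and 46.6 RPKM in control roots. Both ion libraries lay far below the other 4, and the log2 fold change against control was -3.88 ± 0.36 (adjusted p = 0.000986). PER27 (AT3G01190) had 50.7 and 28.9 RPKM in ion roots, 673.6 and 700.8 RPKM in nanoparticle roots and 504.4 and 381.5 RPKM in control roots. It was the second most abundant member in nanoparticle roots and the third in control roots, and stood at rank 24 of 56 in ion roots. Ion against control, its log2 fold change was -3.48 ± 0.31 (adjusted p = 0.000866). On the log2(RPKM + 1) scale PER44 and PER27 were the 2 members with the largest falls. In pooled reads scaled to depth, control over ion was 19.2-fold for PER44, 14.4-fold for PER57, 13.7-fold for PER24 and 11.4-fold for PER27.

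The promoters of PER54, PER44 and PER27 are shown because these genes are among the largest rises and falls, each as 250 bases before and 50 after the annotated gene start (RefSeq annotation of TAIR10.1), written 5′ to 3′ on the strand of the gene. Capitals mark the W-box core TTGAC, to which WRKY factors bind, on either strand (GTCAA on the other), and in PER27 also the root hair element RHE, through which RSL-type regulators act on root hair genes.
PER54 promoter, chr5:2081636-2081935, minus strand: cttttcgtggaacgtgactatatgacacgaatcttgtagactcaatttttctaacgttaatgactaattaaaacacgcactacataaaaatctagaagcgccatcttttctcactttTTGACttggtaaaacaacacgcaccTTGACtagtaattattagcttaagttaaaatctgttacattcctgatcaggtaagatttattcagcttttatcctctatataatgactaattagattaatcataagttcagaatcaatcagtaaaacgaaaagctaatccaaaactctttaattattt
PER44 promoter, chr4:13200164-13200463, plus strand: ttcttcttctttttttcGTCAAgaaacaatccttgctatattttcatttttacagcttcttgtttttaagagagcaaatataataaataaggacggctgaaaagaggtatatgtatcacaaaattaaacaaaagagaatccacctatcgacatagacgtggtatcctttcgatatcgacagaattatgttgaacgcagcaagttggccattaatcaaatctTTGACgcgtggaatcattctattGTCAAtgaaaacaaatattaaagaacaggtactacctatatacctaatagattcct
PER27 promoter, chr3:68616-68915, minus strand: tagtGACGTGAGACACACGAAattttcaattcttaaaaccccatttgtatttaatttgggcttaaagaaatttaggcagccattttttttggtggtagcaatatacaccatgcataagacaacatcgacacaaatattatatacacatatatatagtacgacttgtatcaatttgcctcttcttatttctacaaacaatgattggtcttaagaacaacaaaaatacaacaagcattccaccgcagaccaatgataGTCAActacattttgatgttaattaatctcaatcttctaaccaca

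The W-box core occurred in the promoters of 34 of the 60 members, against 50.5% of 27437 promoters of protein-coding genes. It was found in 15 of the 19 members that rose and 6 of the 11 that fell. Of the 16 that did not pass, 6 held it. RHE was found in PER20, PER27 and PER60, against 0.867% of those promoters. The AC element ACCNANC, searched on both strands, occurred in 20 of the 60 members and 32.6% of all promoters. The motifs P1BS and G-box were searched as well. Each occurred in 1 of the 60 members, P1BS against 6.25% and G-box against 7.68% of all promoters. A match is a description of the letters and not a site of binding, and an absence says only that these letters are not in the window.

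Among the peroxidases of root hairs, PER44 and PER7 fell in ion roots, PER60 did not pass the test and PER1 was not tested. PER7 (AT1G30870) had 1.84 and 0.453 RPKM in ion roots, 27.3 and 25.6 RPKM in nanoparticle roots and 17.7 and 4.72 RPKM in control roots, a log2 fold change of -2.35 ± 0.56 (adjusted p = 0.0267). The first control library of PER7 lay above the second, and both lay above the ion libraries. The call of PER7 was lost without either ion library, at adjusted p = 0.0642 without the first and 0.154 without the second, and with no filter on low values (0.0552). PER60 (AT5G22410) had 0.958 and 0.0552 RPKM in ion roots, 1.54 and 3.01 RPKM in nanoparticle roots and 1.90 and 1.90 RPKM in control roots, a log2 fold change of -1.01 ± 0.36 that did not pass (adjusted p = 0.0886). Its ion libraries were both below its control libraries. PER1 (AT1G05240) stayed at or under 0.110 RPKM in all libraries. Its coding sequence is identical to that of PER2 (AT1G05250), which reached 1.01 RPKM in the first nanoparticle library, so reads cannot be assigned with certainty between the pair. Of the 6 root hair markers 4 fell, 0 rose and 2 did not pass, with a median log2 fold change of -2.22. Of all genes tested 10.3% fell. The part of the marker falls in those of PER44 and PER7 was not tested.

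Of the peroxidases repressed by UPB1, the bHLH factor that sets the boundary between cell division and elongation in the root tip, PER57 fell, PER40 rose and PER39 did not pass. PER57 (AT5G17820) had 6.81 and 5.83 RPKM in ion roots, 163.6 and 173.5 RPKM in nanoparticle roots and 137.2 and 40.6 RPKM in control roots, a log2 fold change of -3.38 ± 0.50 (adjusted p = 0.00494). The control libraries differed between themselves, and both were above the ion libraries. PER40 (AT4G16270), also known from the tapetum of anthers, had 2.27 and 2.38 RPKM in ion roots, 0.430 and 0.421 RPKM in nanoparticle roots and 0.819 and 0.310 RPKM in control roots, a log2 fold change of 1.11 ± 0.24 (adjusted p = 0.0203). PER40 passed the filter on low values through its ion libraries alone, so it was tested only because of that difference. Its call was lost without the second control library (adjusted p = 0.0569) and without either nanoparticle library (0.0521 and 0.0522), and with library weights (0.0599). PER39 (AT4G11290) had 58.7 and 91.6 RPKM in ion roots, 64.5 and 59.3 RPKM in nanoparticle roots and 45.8 and 26.1 RPKM in control roots, a log2 fold change of 1.06 ± 0.32 just outside the threshold (adjusted p = 0.0549). Without the first control library the log2 fold change of PER39 was 1.46. UPB1 itself had 115.6 and 36.0 RPKM in ion roots and 45.9 and 50.6 RPKM in control roots, and did not pass.

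Of the 7 members listed here as linked to lignin or phenolic cross-linking, 5 rose in ion roots, 0 fell and 2 did not pass. The share higher was 71.4%, where 12.3% of all genes tested and 41.3% of the family members tested were higher. The median log2 fold change of the 7 was 2.36, against 0.06 over all genes tested and 0.72 over the family members tested. The group was not tested against the other members. This list was chosen with earlier results of these data known, so its shares are no test of lignin peroxidases as a class. PER53 is one of the 5. PER49 (AT4G36430) had 168.1 and 296.1 RPKM in ion roots, 53.9 and 61.5 RPKM in nanoparticle roots and 43.3 and 40.0 RPKM in control roots, a log2 fold change of 2.39 ± 0.28 (adjusted p = 0.00216). PER25 (AT2G41480), linked to lignin in stems, had 36.7 and 81.8 RPKM in ion roots, 22.4 and 20.5 RPKM in nanoparticle roots and 15.3 and 6.32 RPKM in control roots, a log2 fold change of 2.36 ± 0.47 (adjusted p = 0.0142; without the second ion library 0.0848). The ion libraries of PER49 and PER25 were above their control libraries in each case.

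PER52 (AT5G05340), which takes part in stem lignification, had 14.3 and 20.5 RPKM in ion roots, 0.0593 and 0.116 RPKM in nanoparticle roots (1 and 2 reads) and 4.24 and 0.239 RPKM in control roots. Its control libraries stood far apart, at 75 and 4 reads, and its log2 fold change against control was 2.83 ± 0.61 (adjusted p = 0.0188). The call was lost without either ion library (0.0822 without the first, 0.119 without the second). PER17 (AT2G22420), a target of AGL15 that works in lignified tissues, had 20.9 and 27.8 RPKM in ion roots, 14.1 and 14.4 RPKM in nanoparticle roots and 12.8 and 12.5 RPKM in control roots, a log2 fold change of 0.88 ± 0.20 (adjusted p = 0.0208). Its groups did not overlap, and the call was lost without the second ion library (0.115) and without either nanoparticle library (0.0654 and 0.0655), with only the 2 groups compared (0.0648) and with library weights (0.0533).

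PER47 (AT4G33420), linked to xylem vessels, had 177.2 and 226.5 RPKM in ion roots, 254.0 and 272.5 RPKM in nanoparticle roots and 161.4 and 195.6 RPKM in control roots, with overlapping ion and control libraries and a log2 fold change of 0.17 ± 0.23 (adjusted p = 0.613). PER4 (AT1G14540) had 4.26 and 6.73 RPKM in ion roots, 12.7 and 8.20 RPKM in nanoparticle roots and 7.70 and 6.17 RPKM in control roots, a log2 fold change of -0.31 ± 0.29 (adjusted p = 0.472). Beside the rise of the 5 lignin-linked peroxidases, the xylem marker sums of both ion libraries lay below those of both control libraries.

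PER34 (AT3G49120), a source of the apoplastic oxidative burst, rose: 53.7 and 61.1 RPKM in ion roots, 23.5 and 22.0 RPKM in nanoparticle roots and 20.1 and 29.5 RPKM in control roots, a log2 fold change of 1.20 ± 0.22 (adjusted p = 0.0110). Its call was lost without either ion library (0.056 without the first, 0.0803 without the second). Its neighbour PER33 (AT3G49110), with 90.4% identical coding bases, stayed at or under 0.372 RPKM throughout and was not tested. Of the stretches of 50 bases in exons, 7.23% of PER33 and 7.47% of PER34 occur elsewhere in the genome. PER3 (AT1G05260), known as RCI3 from cold and low potassium, had 279.4 and 284.2 RPKM in ion roots, 240.0 and 248.8 RPKM in nanoparticle roots and 206.3 and 96.9 RPKM in control roots, a log2 fold change of 0.99 ± 0.35 (adjusted p = 0.0862). Its control libraries stood apart, and without the first of them the log2 fold change of PER3 was 1.53.

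Of the peroxidases known from pollen, seed coat and germination, PER16 fell, PER9 did not pass and PER36 (AT3G50990) had at most 1 read in any library. PER16 (AT2G18980) had 11.7 and 5.14 RPKM in ion roots, 55.1 and 43.2 RPKM in nanoparticle roots and 74.7 and 37.8 RPKM in control roots, a log2 fold change of -2.62 ± 0.43 (adjusted p = 0.00717). PER9 (AT1G44970), which acts in the tapetum, had 12.4 and 21.0 RPKM in ion roots, 19.3 and 21.1 RPKM in nanoparticle roots and 12.9 and 13.1 RPKM in control roots, a log2 fold change of 0.29 ± 0.26 (adjusted p = 0.446). The ion libraries of PER9 lay on either side of its control libraries.

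Members without a role fixed above included further large rises. PER15 (AT2G18150) had 122.0 and 163.5 RPKM in ion roots, 45.3 and 46.8 RPKM in nanoparticle roots and 27.1 and 30.7 RPKM in control roots (log2 fold change against control 2.25 ± 0.20, adjusted p = 0.000925). PER20 (AT2G35380) had 64.4 and 88.5 RPKM in ion roots, 15.9 and 16.3 RPKM in nanoparticle roots and 11.7 and 20.3 RPKM in control roots (2.22 ± 0.29, adjusted p = 0.00295). Both genes had ion libraries above all other libraries. PER12 (AT1G71695) had 47.4 and 67.6 RPKM in ion roots, 8.74 and 12.8 RPKM in nanoparticle roots and 14.7 and 14.6 RPKM in control roots (1.88 ± 0.25, adjusted p = 0.00339). PER38 (AT4G08780) had 28.6 and 75.1 RPKM in ion roots, 14.0 and 14.99 RPKM in nanoparticle roots and 16.0 and 9.61 RPKM in control roots (1.82 ± 0.44, adjusted p = 0.0288). The call of PER38 was lost without the second ion library (0.101), without the second control library (0.0778) and without either nanoparticle library (0.0539 and 0.0541), and also with no filter on low values (0.0554), with only the 2 groups compared (0.0536) and with library weights (0.0514). PER23 (AT2G38390) had 389.0 and 570.9 RPKM in ion roots, 232.7 and 212.0 RPKM in nanoparticle roots and 137.9 and 140.9 RPKM in control roots (1.75 ± 0.25, adjusted p = 0.00438). PER23 stood at rank 2 of the family in ion roots and at rank 9 in both other groups. The remaining 9 rises, of PER11, PER19, PER26, PER30, PER34, PER37, PER40, PER55 and PER17, lay between 0.83 and 1.73 on the log2 scale. Among these, PER11 (0.0574) and PER30 (0.0622) lost their calls without the second ion library, PER19 without the first (0.0854) or the second (0.0681), and PER26 without any 1 ion or nanoparticle library, with only the 2 groups compared and with library weights (adjusted p between 0.0673 and 0.117).

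Falls outside the role groups were large as well. PER21 (AT2G37130) had 30.2 and 29.3 RPKM in ion roots, 281.8 and 275.5 RPKM in nanoparticle roots and 304.6 and 166.9 RPKM in control roots (log2 fold change against control -2.88 ± 0.29, adjusted p = 0.00130). PER28 (AT3G03670) had 8.03 and 10.8 RPKM in ion roots, 117.1 and 147.9 RPKM in nanoparticle roots and 104.5 and 44.7 RPKM in control roots (-2.75 ± 0.39, adjusted p = 0.00431). In both genes the ion libraries lay close together and the second control library lay well below the first. PER56 (AT5G15180) had 20.4 and 18.1 RPKM in ion roots, 114.9 and 119.6 RPKM in nanoparticle roots and 119.8 and 66.5 RPKM in control roots (-2.16 ± 0.28, adjusted p = 0.00320). PER59 (AT5G19890) had 54.8 and 121.5 RPKM in ion roots, 381.0 and 362.2 RPKM in nanoparticle roots and 278.0 and 334.3 RPKM in control roots (-1.89 ± 0.37, adjusted p = 0.0135). The call of PER59 was lost without the first ion library (0.0502). PER51 (AT4G37530) had 3.79 and 6.68 RPKM in ion roots, 25.9 and 30.8 RPKM in nanoparticle roots and 24.2 and 14.8 RPKM in control roots (-1.72 ± 0.31, adjusted p = 0.0108), and its call was also lost without the first ion library (0.0701). PER24 (AT2G39040), the remaining fall at -1.68, was listed at 0.3996 and 0.0576 RPKM in ion roots, 6 reads and 1 read, against 63 and 39 reads in control roots. Of the 30 calls, 17 (PER12, PER15, PER16, PER20, PER21, PER23, PER24, PER27, PER28, PER37, PER44, PER49, PER53, PER54, PER55, PER56 and PER57) were kept under every alternative run.

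The 16 members that did not pass lay between -1.07 and 1.30 on the log2 scale. They included the most abundant member of the family, PER42 (AT4G21960), known as PRXR1, with 1670 and 2082 RPKM in ion roots, 2699 and 2613 RPKM in nanoparticle roots and 2404 and 2139 RPKM in control roots (log2 fold change against control -0.28 ± 0.36, adjusted p = 0.599). PER32 (AT3G32980) had 250.1 and 414.8 RPKM in ion roots, 575.0 and 604.2 RPKM in nanoparticle roots and 483.6 and 467.2 RPKM in control roots (-0.56 ± 0.30, adjusted p = 0.217). PER45 (AT4G30170) had 239.5 and 205.1 RPKM in ion roots, 538.9 and 546.0 RPKM in nanoparticle roots and 534.3 and 192.1 RPKM in control roots (-0.53 ± 0.45, adjusted p = 0.431). The ion libraries of PER42 and PER32 lay below all others, those of PER45 between its 2 control libraries. Without the first control library the log2 fold changes of PER3, PER5, PER22, PER31 and PER39 lay between 0.905 and 1.898. Without the second, those of PER8, PER35 and PER45 lay between -1.474 and -1.266. These members crossed the threshold there, in fits that leave 1 control library and that called more of all genes tested.

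Together the 56 members in the table summed to 4838 and 6350 RPKM in ion roots, 7486 and 7502 RPKM in nanoparticle roots and 6415 and 5111 RPKM in control roots, or 0.661% and 0.866% of reads in ion roots, 1.03% and 1.03% in nanoparticle roots and 0.888% and 0.717% in control roots. The ion and control libraries overlapped in this sum and the nanoparticle libraries lay above both groups. PER42 alone made up between 32.8% and 41.9% of the sum. An exact two-sided permutation test of the sums gave p = 0.667 for ion against control and p = 0.333 for nanoparticle against control and for ion against nanoparticle, and 0.333 is the smallest p that 2 libraries against 2 allow. Beneath the overlapping sums of ion and control roots the order of members differed. PER37 stood at rank 4 in ion roots and at rank 12 in control roots. PER49 stood at rank 7 and rank 20, and PER21 at rank 26 and rank 6.

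No member passed the test in nanoparticle roots against control roots, and neither did any of the 19648 genes tested, so the background was 0% higher and 0% lower. At an unadjusted p under 0.05, 11 members were higher and 0 were lower, where 4.2% of all genes were higher and 2.45% were lower. The log2 fold change was positive for 38 members and negative for 8, with a median of 0.48 against -0.03 over all genes tested. Both nanoparticle libraries lay above both control libraries for 28 members, which held for 20.7% of all genes tested, and below both for 4, which held for 25.2% of all genes. The largest differences were those of PER7, 1.41 ± 0.56, PER35 (AT3G49960), 1.34 ± 0.37, and PER24, 1.23 ± 0.25, and all 3 had an adjusted p of 0.595.

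The nanoparticle comparison rested on the control libraries. The second control library lay below the first for 33 of the 46 members tested, for 10 of the 11 that fell in ion roots, PER59 excepted, for 10 of the 19 that rose and for 13 of the 16 that did not pass. Across all genes tested 47.5% lay below, with a median difference of 0.03 on the log2 scale, against -0.84 over the members that fell, -0.01 over those that rose and -0.70 over those that did not pass. The summed levels of the root hair and of the endodermis and Casparian strip markers were also lower in the second control library, though CASP5 was higher there (11.4 against 3.71 RPKM in the first) and ADF8 level (16.4 in both). Their part in these differences was not tested. Without the first control library 14 members were called higher in nanoparticle roots and 0 lower (PER3, PER5, PER7, PER8, PER21, PER24, PER25, PER28, PER31, PER35, PER39, PER45, PER56 and PER57), where 10.6% of all genes tested were called higher and 7.43% lower. In that fit PER57 differed by 2.03 ± 0.16 (adjusted p = 0.00231) and PER3 by 1.33 ± 0.16 (adjusted p = 0.00625), with the spread of the lone control library assumed to be like that of the other groups. Without the second control library no member was called.

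**Figure D2:**
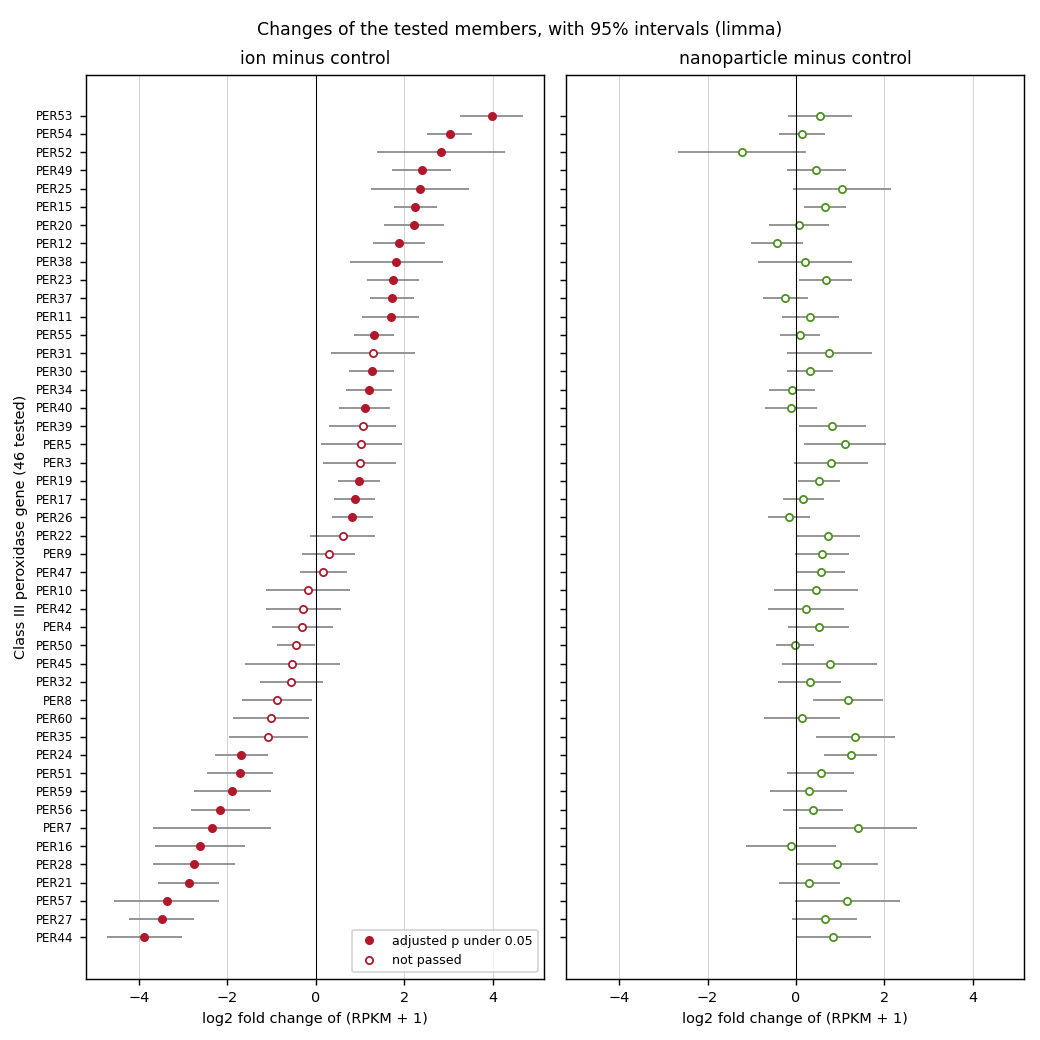
Log2 fold change of (RPKM + 1) with 95% intervals for the 46 members tested, ion minus control on the left and nanoparticle minus control on the right, in the same order of rows. Filled points passed the test: 19 on the right of 0 and 11 on the left for ion, and none for nanoparticle, where 38 of the open points lie on the right of 0.

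Set directly against nanoparticle roots, ion roots had 17 members higher, 13 lower and 16 not past the test, where 13.3% of all genes tested were higher and 11.9% were lower. This comparison and that of ion with control share the ion libraries. The median log2 fold change was -0.09 over the members tested and 0.13 over all genes. Scaling by the median of ratios brought the median of all genes to 0.00 and the split of all genes to 1941 higher and 2769 lower, against 2622 and 2347, while 15 members were then higher and 13 lower. PER52 showed the largest fitted rise, 4.06 ± 0.61 (adjusted p = 0.00483), a value that depends on the pseudocount because nanoparticle roots held 1 and 2 reads. PER53 rose by 3.43 ± 0.30 (adjusted p = 0.000706) and PER54 by 2.89 ± 0.22 (adjusted p = 0.000468). The next rises were PER12 at 2.31 ± 0.25, PER20 at 2.16 ± 0.29, PER37 (AT4G08770) at 1.97 ± 0.21, PER49 at 1.94 ± 0.28, PER38 at 1.62 ± 0.44, PER15 at 1.60 ± 0.20 and PER11 (AT1G68850) at 1.37 ± 0.27, with adjusted p between 0.00137 and 0.0393. Without the second ion library 9 members were higher, and without the first or the second nanoparticle library 8 each, where 4.4%, 4.09% and 3.03% of all genes tested were higher. PER11, PER17, PER23, PER26, PER30, PER34, PER38, PER40 and PER55 each lost their call without 1 or more of the 4 ion and nanoparticle libraries (adjusted p between 0.0525 and 0.229). PER38 also lost it with no filter on low values (0.07) and with median-of-ratios scaling (0.0585), and PER17 with median-of-ratios scaling (0.0698) and TPM scaling (0.054).

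The falls against nanoparticle roots were led by PER44 at -4.73 ± 0.36 (adjusted p = 0.000470), PER57 at -4.54 ± 0.50 (0.00149), PER27 at -4.13 ± 0.31 (0.000468), PER7 at -3.76 ± 0.56 (0.00472) and PER28 at -3.68 ± 0.39 (0.00131). PER21 at -3.18 ± 0.29, PER24 at -2.92 ± 0.25, PER56 at -2.55 ± 0.28 and PER16 at -2.50 ± 0.43 followed. PER16 lost its call without the first nanoparticle library (-2.33, adjusted p = 0.0525), and PER59 without either nanoparticle library (0.0533 and 0.0577). PER35 fell here and not against control: it had 2.25 and 0.758 RPKM in ion roots and 11.6 and 11.9 RPKM in nanoparticle roots, against 5.64 and 2.82 RPKM in control roots, for a log2 fold change of -2.41 ± 0.37 against nanoparticle (adjusted p = 0.00539). PER8 (AT1G34510), at 0 and 5 reads in ion roots and 56 and 69 reads in nanoparticle roots, was the other (-2.05 ± 0.33, adjusted p = 0.00651; lost without the second nanoparticle library, 0.0579, or the first ion library, 0.0554). PER25 and PER19 (AT2G34060) rose against control and did not pass here (1.32 ± 0.47 and 0.46 ± 0.20). Without the first or the second control library, PER32 (-0.87), PER45 (-1.29), PER50 (-0.43) and PER25 (1.32) kept the log2 fold changes of the full fit. They crossed the threshold in these fits, which called more of all genes tested in both directions.

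Members next to each other on a chromosome, or with 1 gene between, form 10 pairs. PER53 and PER54, with 80.8% identical coding bases, both rose, as did PER37 and PER38, with 93.8%. PER37, linked to phenolic compounds of the vascular bundles, had 303.6 and 360.5 RPKM in ion roots, 89.2 and 78.6 RPKM in nanoparticle roots and 89.7 and 109.8 RPKM in control roots (log2 fold change against control 1.73 ± 0.21, adjusted p = 0.00239). PER51 fell. PER50 (AT4G37520), 92.4% identical in coding sequence to it, had 69.0 and 76.0 RPKM in ion roots, 90.4 and 105.6 RPKM in nanoparticle roots and 98.6 and 100.05 RPKM in control roots and did not pass (-0.45 ± 0.18, adjusted p = 0.119). PER23 rose. PER22 (AT2G38380) had 119.5 and 196.0 RPKM in ion roots, 167.7 and 164.6 RPKM in nanoparticle roots and 123.9 and 81.3 RPKM in control roots. It did not pass (0.60 ± 0.31, adjusted p = 0.199), and its log2 fold change without the first control library was 0.905. In both of these pairs the log2 fold changes of the 2 genes had the same sign. The difference between the genes of a pair was not tested. Reads of pairs with like sequences may be split or left uncounted. Of the stretches of 50 bases in exons, 58.9% of PER1 and 100% of PER2 occur elsewhere in the genome. The share was 6.07% for PER37, 7.44% for PER38, 4.97% for PER50 and 4.90% for PER51. It was 4.65% for PER14, 3.15% for PER15 and 0.840% or less for PER22, PER23 and PER29. Apart from these and from PER33 and PER34, given above, it was 0 for every member.

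**Figure D3:**
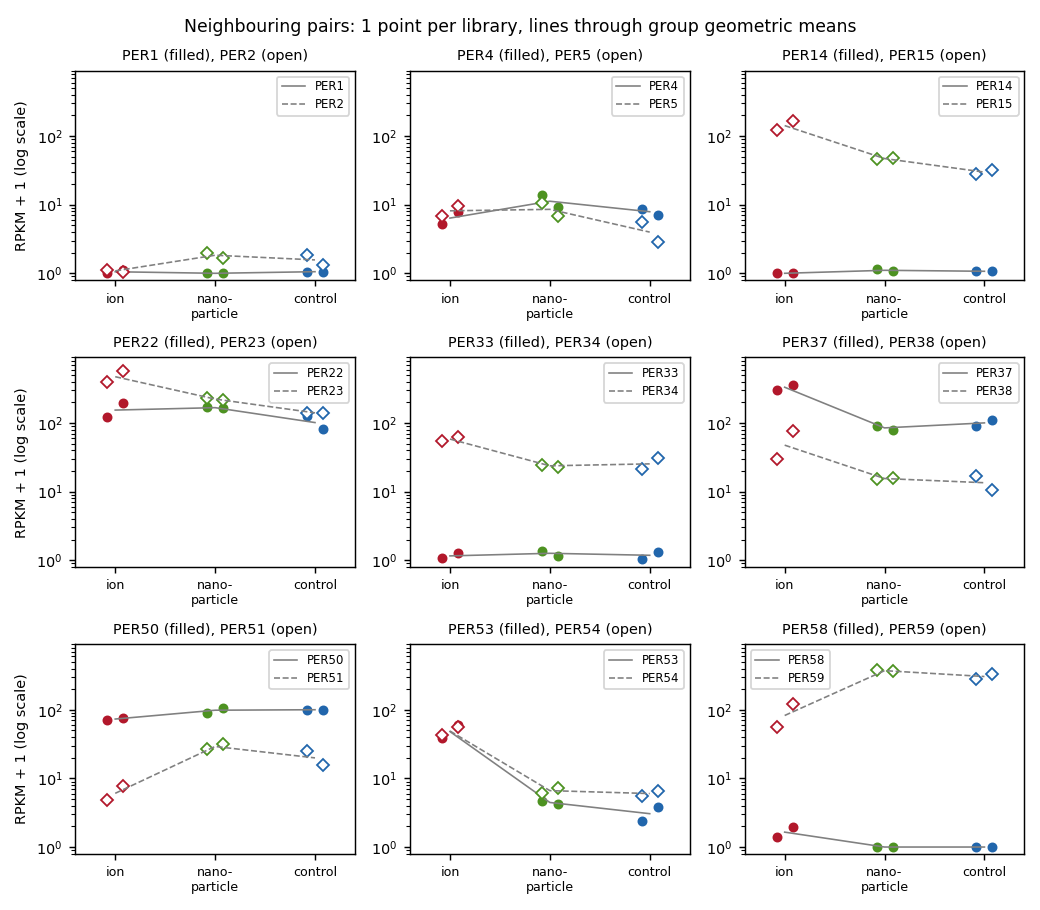
RPKM + 1 on a log axis for 9 of the 10 neighbouring pairs (PER2 with PER3 is not drawn), with ion, nanoparticle and control libraries from left to right, 1 point per library (filled for the first gene of the pair, open for the second) and lines through group geometric means. Both lines rise toward ion for PER53 and PER54 and for PER37 and PER38, and both lines of PER50 and PER51 are lower in ion roots.

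The values of the members not tested stayed low. PER2, PER14, PER18, PER33, PER36, PER43, PER46, PER48 and PER58 had at most 1.45 RPKM in any library. PER1 had at most 0.110 RPKM. PER1 and PER2 are identical in coding sequence, and how reads that fit both genes were counted is not given. Low values of these genes therefore do not show low expression. PER58 (AT5G19880), next to PER59, had 6 and 17 reads in ion roots and 0 reads in the nanoparticle and control libraries, so its depth-scaled reads in ion roots were at least 8.13-fold higher than in control roots, with a floor of 3 reads over the group. PER58 is the only member with reads in ion roots alone, and it was not tested.

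Among related gene groups, the other 13 family members, PER61 to PER73, had 10 tested, of which 2 rose and 3 fell in ion roots against control. The shares of each related group stand against the 12.3% of all genes tested that rose and the 10.3% that fell: 20% and 30% for PER61 to PER73 and 12.5% and 0% for the respiratory burst oxidases. They were 20% and 33.3% for laccases, 17.6% and 5.88% for monolignol enzymes and 0% and 50% for the regulators. The shares higher of the oxidases and the monolignol enzymes lay near that background. PER69 (AT5G64100) fell most, with 29.9 and 27.6 RPKM in ion roots and 732.7 and 355.9 RPKM in control roots. Its log2 fold change was -4.11 ± 0.35 (adjusted p = 0.000754), and PER63 rose most at 1.03 ± 0.28 (adjusted p = 0.0409). PER63 lost its call without any 1 library other than the first control library, with no filter on low values, with median-of-ratios scaling, with only the 2 groups compared and with library weights (adjusted p between 0.0533 and 0.167). Of the 8 respiratory burst oxidases tested, which supply superoxide, 1 rose, RBOHD, with 48.9 and 62.2 RPKM in ion roots and 21.1 and 30.4 RPKM in control roots (1.10 ± 0.23, adjusted p = 0.0170), and 0 fell. Without either ion library RBOHD was not called (0.055 and 0.111). Against nanoparticle roots RBOHD rose (1.07 ± 0.23) and RBOHI fell (-1.26 ± 0.30).

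Laccases, which also polymerise lignin, had 3 of 15 rise and 5 fall in ion roots against control. LAC5 had 23.9 and 33.0 RPKM in ion roots and 5.96 and 6.60 RPKM in control roots (log2 fold change 2.00 ± 0.24, adjusted p = 0.00232), and LAC11, a laccase of vascular lignin, 1.38 and 1.59 RPKM in ion roots and 11.8 and 9.09 RPKM in control roots (-2.19 ± 0.20, adjusted p = 0.00100). Of 17 monolignol enzymes 3 rose and 1 fell: CCR2 had 66.1 and 67.3 RPKM in ion roots and 13.9 and 7.80 RPKM in control roots (2.56 ± 0.26, adjusted p = 0.00130), and FAH1, which directs monolignols toward syringyl units, 3.03 and 3.09 RPKM in ion roots and 31.7 and 12.9 RPKM in control roots (-2.39 ± 0.37, adjusted p = 0.00607; without the second ion library 0.0512). Among 6 regulators of peroxidase genes tested, 0 rose and 3 fell, the largest being RSL2, a root hair factor, with 0.422 and 0.104 RPKM in ion roots and 4.71 and 9.17 RPKM in control roots (-2.60 ± 0.34, adjusted p = 0.00308). Against nanoparticle roots the largest changes of the same lists were PER61 (0.87 ± 0.23) and PER73 (-4.95 ± 0.35), LAC5 (1.76 ± 0.24) and LAC9 (-2.44 ± 0.34), CCR2 (1.58 ± 0.26) and FAH1 (-3.42 ± 0.37), and RHD6 (1.03 ± 0.24) and RSL2 (-2.62 ± 0.34). PER61, RBOHD, RBOHI, RHD6 and CCR2 lost these calls without 1 or more of the ion and nanoparticle libraries (adjusted p between 0.0509 and 0.214), and PER61 also with median-of-ratios scaling (0.0504) and limma-voom on recovered reads (0.0673).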

How the data were processed

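RNA from roots was sequenced in 6 libraries, 2 each of ion, nanoparticle and control roots, with the kit named in the labels' protocols. The deposited table gives RPKM per locus, computed by the authors and normalized to the reads of each library; TopHat2 2.0.12, HTSeq 0.6.0 and the TAIR10 build are named in the submitters' processing notes without a role, and how RPKM was computed is not given in the sources used here. The 6 value columns were matched to libraries by title (0 were left unmatched).

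Whole reads were recovered from the steps of the RPKM values for all 24438 genes (100% of values within 1e-06 of a whole number), and the multiplier of the shortest gene length was set after the sums were seen. A gene was tested if 2 or more libraries reached 1 RPKM (19648 genes, 80.4%). limma (version 3.58.1, R 4.3.3) was fitted to log2 RPKM with a pseudocount of 1, with 3 groups in 1 fit, a trend, 3 residual degrees of freedom and Benjamini-Hochberg adjustment over all genes tested; the scripts were tested on simulated data. A fold change on this scale understates that of low genes. Values are mean changes of 2 libraries against 2, ± an SE from the spread pooled over all 3 groups. A gene therefore has the same SE in each comparison, such as 0.61 for PER52. The SE of ion against nanoparticle thus takes in the spread of the control libraries. The 95% intervals rest on the spread between libraries, and the floor of 3 reads covers counting error only. A limma-voom fit on the recovered reads called 2507 genes higher and 2142 lower in ion against control.

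Named members are the 10 largest rises and falls past the test in each comparison, the 5 most abundant and those of role groups; others are given by range. PER2, PER8, PER22, PER50 and PER58, outside that rule, were chosen after their values were seen. Members and lists were chosen with earlier results of these data known. All 60 members matched RefSeq; coordinates and sequences are those of TAIR10.1, since the table holds only loci, and 1 promoter sequence is not reported here. Whether the labels' replicate numbers pair the libraries is not known. Deviations of same-numbered libraries correlated at -0.164 (ion and control), 0.075 (ion and nanoparticle) and -0.054 (nanoparticle and control). With 2 libraries a group these values cannot settle it. Alternatives are listed in the closing section.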

Additional observations from a re-analysis of the deposited data

How the results depend on the processing

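The alternatives were another pseudocount, no or a stricter filter, median-of-ratios or TPM scaling, only the 2 groups compared, library weights, limma-voom on recovered reads, a replicate block and each library left out. Leaving out 1 library gave 9 to 24 members higher and 8 to 14 lower in ion against control, 0 to 14 higher and 0 lower in nanoparticle against control, and 8 to 18 higher and 11 to 16 lower in ion against nanoparticle. The other settings gave 15 to 21 members higher and 10 to 11 lower in ion against control, and 0 in nanoparticle against control. In ion against nanoparticle they gave 15 to 18 higher and 12 to 17 lower. Over 15843 to 24438 genes tested, they called 1468 to 2507 higher and 1352 to 2397 lower in ion against control. They called 1941 to 4781 higher and 1923 to 3496 lower in ion against nanoparticle, and 0 in nanoparticle against control. The replicate block gave 19 members higher and 11 lower in ion against control, where 2029 and 1704 of all genes were. It gave 0 and 0 in nanoparticle against control. In ion against nanoparticle it gave 15 and 13, where 2036 and 2007 of all genes were higher and lower. It moved no count of members by over 1.5 times. With the block PER17 (adjusted p = 0.0627), PER38 (0.0605) and PER61 (0.0553) lost their calls in ion against nanoparticle and PER63 (0.0505) in ion against control. Whether libraries with the same replicate number share more than that label is not known. Among 2001 recomputed values of named genes, 1866 kept their direction and side of the threshold, 89 lost the threshold, 31 gained it and 15 changed sign, none of which had passed the test. The cause of these changes was not tested. For nanoparticle minus control, PER20 turned to -0.010 with TPM scaling. The other sign changes came with 1 library left out, and the ranges over all such fits were -0.604 to 0.360 for PER16 (0.050 without nanoparticle replicate 2), -0.314 to 0.435 for PER20, -0.128 to 0.736 for PER21, -0.361 to 0.172 for PER34, -0.138 to 0.545 for PER38, -0.352 to 0.122 for PER40, -0.032 to 0.808 for PER56 and -0.191 to 0.470 for PER60. For ion minus control they were -0.069 to 0.646 for PER9, -1.266 to 0.206 for PER45 and -0.004 to 0.349 for PER47. For ion minus nanoparticle they were -0.662 to 0.053 for PER9 and -0.074 to 0.559 for PER39. Low reads limit the precision of PER8, PER24 and PER52.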
